A study of Mus musculus with 4 samples.

Results

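The genes described here are 35 cell cycle and replication genes, taken by symbol from the 32285 genes of a pooled table of unique molecular identifier (UMI) counts from dispersed mouse pancreatic islet cells. Of them, 10 act in DNA replication (Mcm2, Mcm3, Mcm4, Mcm5, Mcm6, Mcm7, Pcna, Tyms, Rrm1 and Rrm2). Another 11 are mitotic cyclins, kinases and their regulators (Cdk1, Ccnb1, Ccnb2, Ccna2, Plk1, Aurka, Aurkb, Birc5, Bub1, Bub1b and Ube2c). A further 12 act on chromosomes, centromeres and the spindle (Mki67, Top2a, Cenpa, Cenpe, Cenpf, Nusap1, Tpx2, Kif11, Kif20a, Kif23, Prc1 and Hmmr), and Stmn1 and Hmgb2 have other roles. The 23 genes of the middle groups are called the mitosis genes below. All 35 symbols were found, each on 1 row, and each had counts.

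Cells came from islets of NOD mice, a strain that develops autoimmune diabetes, at 5 weeks of age. Of the 4 samples, 2 are labelled Xbp1{beta}-/-, with the transcription factor gene Xbp1 deleted in beta cells, and 2 are labelled Xbp1fl/fl, with the gene flanked by recombination sites. All 4 samples carry the same treatment label, tamoxifen by intraperitoneal injection at 10 mg/ml over 5 days, and the islets were hand-picked, cultured overnight and dissociated. The Cre driver, the deleted stretch of Xbp1 and the number of mice per sample are not given in the sources used here. The table holds 4 libraries, marked by the numbers 1 to 4 at the end of each barcode, and 0 sample labels equal a library number. Each library is therefore given by its number, no genotypes are compared, and no test was run.

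A dividing cell first licenses its origins with the hexameric MCM helicase and then copies its DNA with the PCNA sliding clamp and the nucleotides made through ribonucleotide reductase and thymidylate synthase. It then enters mitosis under cyclin A and cyclin B bound to CDK1, condenses and separates its chromosomes, and degrades the mitotic regulators through the anaphase-promoting complex. Replication genes are known targets of E2F factors, while many mitosis genes are driven by the DREAM and MuvB complexes through a CHR element and by NF-Y through CCAAT boxes. Beta cells divide rarely after weaning, and lymphocytes that enter the islets of NOD mice can divide after activation.

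The promoters of the genes differed in these elements. In windows from 250 bases before to 50 bases after the transcription start in RefSeq on GRCm38.p6, 29 of the 35 genes had an entry, and Ccna2, Aurkb, Tpx2, Kif20a, Mcm4 and Stmn1 had none. The pentamer CCAAT, searched on either strand, was in 17 of 19 mitosis promoters and 8 of 9 replication promoters, and in 37.8% of all 27025 promoters of the table. The CHR core TTTGAA was in 14 of 19 mitosis promoters, or 73.7%, but in 1 of 9 replication promoters, that of Mcm2, against 18.1% of all promoters. The similar hexamer TTTAAA was in 7 of 19 and 2 of 9, against 13.3% of all. At least 1 of the E2F octamers GGCGGGAA, TTTCCCGC and TTTGGCGC was in 4 of 9 replication promoters (Mcm3, Mcm5, Mcm6 and Rrm1) and in 0 of 19 mitosis promoters, against 3.30% of all. GGCGGGAA and the reverse strand of TTTCCCGC can overlap. All 14 mitosis promoters with TTTGAA also held CCAAT, a pair found in 7.01% of all promoters. A match is a string of letters in this window and not a measured binding site.

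The 120 bases before the start are printed for 8 genes whose RNA is described below, 5 mitosis genes and then 3 replication genes, to show how the elements are placed. Each runs 5′ to 3′ on the gene's own strand (GRCm38.p6, RefSeq), and for Cdk1 and Rrm2 the window was moved upstream by 26 and 13 bases to clear a start that GENCODE places further upstream. Capitals mark the CCAAT pentamer, the CHR core and the E2F octamers on either strand, so an element on the other strand appears as its reverse complement.
Mki67, chr7:135716380-135716499, minus strand: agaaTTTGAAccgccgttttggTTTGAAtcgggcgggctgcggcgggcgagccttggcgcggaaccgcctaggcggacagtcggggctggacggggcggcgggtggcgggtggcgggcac
Top2a, chr11:99024190-99024309, minus strand: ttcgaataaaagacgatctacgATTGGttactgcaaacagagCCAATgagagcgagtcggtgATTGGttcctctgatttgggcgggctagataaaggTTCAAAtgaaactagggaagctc
Cdk1, chr10:69352939-69353058, minus strand: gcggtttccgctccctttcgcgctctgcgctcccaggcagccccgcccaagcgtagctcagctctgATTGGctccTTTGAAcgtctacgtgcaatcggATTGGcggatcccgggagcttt
Ccnb2, chr9:70421555-70421674, minus strand: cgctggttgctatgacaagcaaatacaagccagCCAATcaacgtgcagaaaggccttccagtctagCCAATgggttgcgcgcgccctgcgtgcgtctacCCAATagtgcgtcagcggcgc
Kif11, chr19:37376262-37376381, plus strand: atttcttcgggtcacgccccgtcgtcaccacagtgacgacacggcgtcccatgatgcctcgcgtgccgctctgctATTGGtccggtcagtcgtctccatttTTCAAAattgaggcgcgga
Mcm3, chr1:20820313-20820432, minus strand: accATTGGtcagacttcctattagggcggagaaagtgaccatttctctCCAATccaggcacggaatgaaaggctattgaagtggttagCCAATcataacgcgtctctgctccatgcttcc
Mcm6, chr1:128359706-128359825, minus strand: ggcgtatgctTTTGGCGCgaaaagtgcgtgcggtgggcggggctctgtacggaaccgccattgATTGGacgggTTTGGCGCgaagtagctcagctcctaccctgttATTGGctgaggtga
Rrm2, chr12:24708121-24708240, plus strand: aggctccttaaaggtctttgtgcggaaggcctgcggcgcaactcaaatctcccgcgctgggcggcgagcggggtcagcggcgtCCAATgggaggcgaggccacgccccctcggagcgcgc
The Mki67 stretch holds TTTGAA in 2 copies and no CCAAT, while those of Top2a and Ccnb2 hold CCAAT in 3 copies each. The Mcm6 stretch holds TTTGGCGC in 2 copies.

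The 4 libraries held 19987 barcodes, and 16146 cells had at least 500 genes and at most 20% mitochondrial UMIs. Median UMIs per cell were 13287, 33052, 15759 and 27499 in libraries 1 to 4. Cells were gated by hormones and marker genes into 9 types, which took in 11988 cells. A gated type is named here by that gate (beta, alpha, delta, endothelial, stromal, macrophage, T, B and ductal). Beta cells numbered 467, 3038, 605 and 2108 in libraries 1 to 4. T cells numbered 180, 59, 148 and 9, B cells 549, 15, 407 and 1, and stromal cells 155, 19, 171 and 20. Cdh5 was seen in 97.6% of endothelial cells, Cd3g in 96.7% of T cells, Cd79a in 100% of B cells and C1qb in 81.6% of macrophages. The gate of these types needs at least 3 markers of the list, so such shares follow in part from it. Other listed markers were rarer, with Esm1 in 49.1% of endothelial, Trbc1 in 52.0% of T, Cftr in 40.1% of ductal and Rgs5 in 23.3% of stromal cells. Krt7, of the ductal list, was also seen in 94.0% of beta cells, and Ins2 in 100% of delta cells. Across libraries, 45 barcode sequences occurred more than once, and 1 of the cells concerned held both Mki67 and Top2a UMIs.

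Mki67, which coats mitotic chromosomes and is low in resting cells, was seen in few islet cells and most often in T cells and macrophages. In beta cells the share with at least 1 Mki67 UMI was 1.28%, 2.27%, 0.826% and 1.71% in libraries 1 to 4. Their exact 95% binomial (Clopper-Pearson) intervals, which cover counting error only, ran from 0.473 to 2.78%, 1.77 to 2.87%, 0.269 to 1.92% and 1.20 to 2.36%. The intervals of libraries 2 and 3 overlap only narrowly, and no test was run. In macrophages the share was 13.1%, 14.9%, 10.3% and 7.89%, and in T cells it was 15.6%, 16.9% and 8.78% in libraries 1 to 3. Every one of these macrophage and T cell values lay above the 4 beta cell values. B cells had 3.10% in library 1 and 3.19% in library 3, the libraries with more than 20 B cells. Alpha cells had 1.44%, 1.02%, 0.813% and 0.768%, above beta cells in library 1 and below them in libraries 2, 3 and 4. Their depth was lower, with a median of 11625 UMIs in alpha cells and 40134.5 in beta cells that held neither Mki67 nor Top2a. Stromal cells had 5.16% in library 1, 1.17% in library 3, 2 of 19 cells in library 2 and 0 of 20 in library 4. The 9 T cells of library 4 and the 15 B cells of library 2 held no Mki67 UMI. Ductal cells had 0.360%, 0% and 0.683% in libraries 1 to 3, and over all libraries Mki67 was seen in 2 of 491 endothelial and 1 of 430 delta cells. No gated type is known to lack Mki67, and the delta cells, with a median of 15043 UMIs, give the lowest share, 0.233%.

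Top2a, the topoisomerase that untangles DNA before chromosomes part, gave a similar order with a different balance. Its share was 1.5%, 0.955%, 0.496% and 0.901% in beta cells and 0.962%, 1.31%, 0.813% and 0.614% in alpha cells. In T cells it was 18.9%, 11.9% and 8.11% in libraries 1 to 3, and in macrophages 4.00%, 9.20%, 4.83% and 7.89%. Macrophages therefore held Mki67 more often than Top2a in libraries 1 to 3 and equally often in library 4. Stromal cells had the reverse, with Top2a in 11.6% and 5.85% of cells in libraries 1 and 3, and ductal cells had Top2a in 2.70% and 1.02% there. B cells had 3.46% and 6.63% in libraries 1 and 3. Delta cells had Top2a in 2 of 430 cells and endothelial cells in 5 of 491.

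The share with both transcripts was lower, and macrophages then stood nearer to B cells than to T cells. In beta cells it was 0 of 467 in library 1, which allows up to 0.642%, then 15 of 3038 (0.494%) in library 2, 0 of 605 in library 3, which allows up to 0.496%, and 13 of 2108 (0.617%) in library 4. All 28 beta cells with both transcripts thus lay in libraries 2 and 4, but the limits of the zeros reach the shares seen there or lie within their intervals. In T cells the share was 10.6%, 8.47% and 2.70% in libraries 1 to 3, with intervals of 6.48 to 16.0%, 2.81 to 18.7% and 0.741 to 6.78%. B cells had 2.19% and 2.70% in libraries 1 and 3, and macrophages had 1.14%, 2.30%, 2.07% and 2.63%. Stromal cells had 5.16% in library 1 and 0.585% in library 3. No delta or endothelial cell, 2 of 1791 alpha cells and 1 of 880 ductal cells held both.

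**Figure D1:**
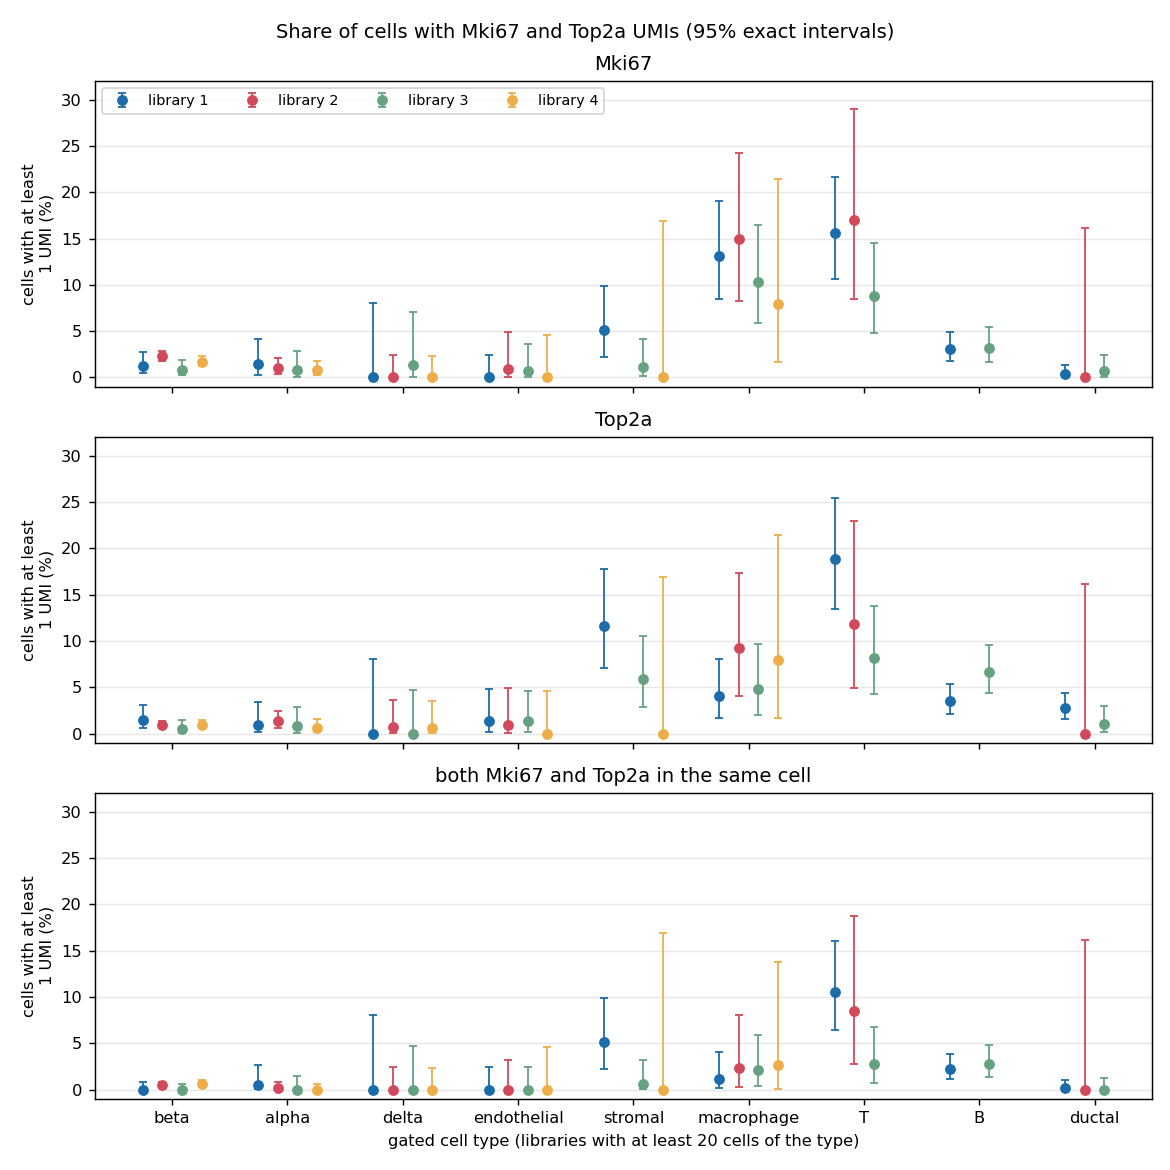
Share of cells (percent, vertical axis) with Mki67, Top2a or both transcripts by gated type (horizontal axis), where each point is a library and bars are exact 95% binomial intervals; libraries with under 20 cells of a type are not drawn. Macrophage and T cell points for Mki67 lie between 7.89 and 16.9%, and beta cell points between 0.826 and 2.27%.

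Depth differed between types and bears on these shares. Beta cells had a median of 40230 UMIs, against 3881 in T cells, 4668.5 in B cells and 14008 in macrophages. With every cell thinned to 5000 UMIs and shallower cells left out, the pooled share with Mki67 went from 1.87% to 0.417% in beta cells (5997 cells left) and from 12.1% to 5.38% in macrophages (390 left). In T cells it went from 12.9% to 20.3%, and in B cells from 3.09% to 4.68%. Thinning kept 148 of 396 T cells and 427 of 972 B cells, the deeper ones, so these shares are over other cells than the unthinned ones.

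Most beta cells with Mki67 had only 1 UMI of it, 82 of 116, and those with Mki67 but not Top2a held a median of 0 of the other 21 mitosis genes. The 28 beta cells with both transcripts held a median of 16 of those 21. The same split appeared in T cells, with a median of 1 other mitosis gene in Mki67-only cells and 19 in cells with both, and in B cells, with 2 and 15. Among 54 macrophages with Mki67, 32 had 1 UMI of it and 8 also had Top2a.

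Counted per cell, most cells held few mitosis genes and a small group held many. Over the 9 types, 9511 cells held none of the 23, 1910 held 1, 350 held 2 and 73 held 3. From 4 to 9 genes there were 44 cells in all, and from 10 to 23 genes there were 100. A line was drawn at 8 mitosis genes after these counts were seen, and 5 cells lay just below it at 7 genes and 6 cells just above it at 8. At or above it were 109 cells, of which 31 were beta cells, 27 T cells, 26 B cells, 15 stromal cells, 7 macrophages, 2 alpha cells and 1 a ductal cell. The beta cells fell 3, 15, 0 and 13 to libraries 1 to 4, the T cells 19, 4 and 4 to libraries 1 to 3, and the B cells 14 and 12 to libraries 1 and 3. These counts are 0.642%, 0.494%, 0% and 0.617% of the beta cells. Library 1, with no beta cell holding both Mki67 and Top2a, thus had 3 beta cells with 8 or more mitosis genes.

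**Figure D2:**
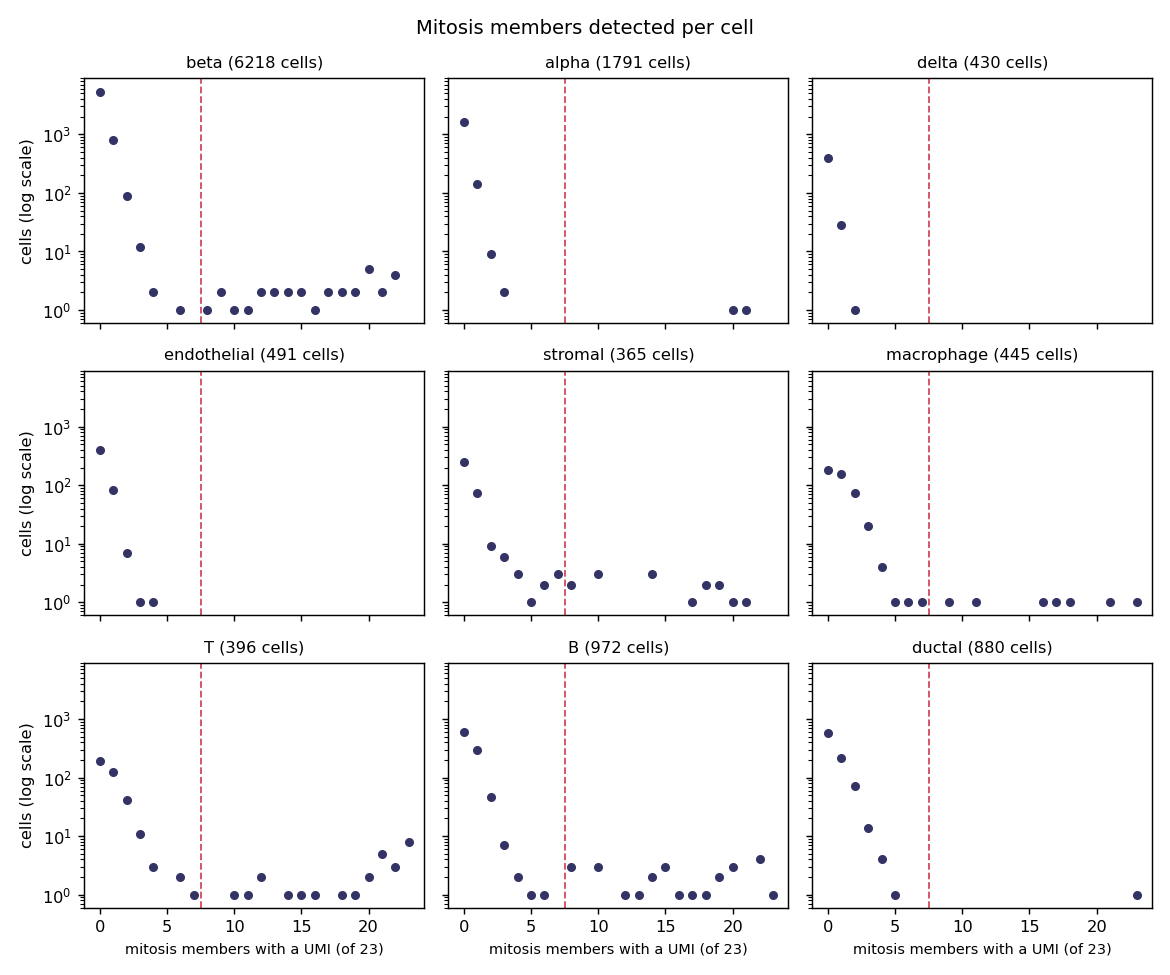
Number of cells (log-scaled vertical axis) by how many of the 23 mitosis genes were detected in the cell (horizontal axis), for the gated types. Beta cells fall from 5287 with none to no more than 2 at each of 4 to 9 genes, and cells with more genes reach to 22.

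These cells were chosen for holding many mitosis genes, so their share of mitosis transcripts is a description. In beta cells the 31 cells were 0.499% of cells and carried 75.9% of the UMIs of the 23 mitosis genes, 61.7% of Stmn1 UMIs and 5.97% of replication UMIs. In T cells 6.82% of cells carried 91.7% of mitosis UMIs and 66.5% of replication UMIs. B cells followed with 80.1% and 60.9%, and stromal cells with 79.1% and 32%. Macrophages stood lower, at 47.3% of mitosis UMIs and 8.95% of replication UMIs, and ductal cells lower still, at 20.1% and 0.632%.

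Levels are given as CPM, the UMIs of a gene scaled to the total UMIs of all genes, summed over the cells of a type in a library with at least 20 of them, and are compared across types for a gene and not between genes. By the median over libraries, T cells were highest for 31 of the 35 genes and B cells for the other 4, Mcm2, Mcm3, Mcm5 and Mcm7. For 16 of the 35 the lowest library of the highest type stood above every library of the type next in order. The 16 were Hmgb2, 8 of the 11 regulators and 7 of the 12 chromosome and spindle genes, all highest in T cells. For no replication gene were the ranges apart. Neither the highest type nor the gap between ranges was counted over all genes, so these counts have no background beside them.

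Among chromosome and spindle genes, Mki67 stood at 179, 162 and 56.6 CPM in T cells of libraries 1 to 3, and at 26.2 and 56.8 CPM in B cells of libraries 1 and 3. In macrophages it stood at 14.1, 44.6, 10.7 and 54.4 CPM, and in beta cells at 1.31, 1.97, 0.329 and 2.43 CPM. T cells of library 3 were level with the upper B cell and macrophage libraries, so only the T cells of libraries 1 and 2 stood clear. Top2a was at 307, 226 and 74.4 CPM in T cells and at 0.435, 2.11, 0.146 and 2.11 CPM in beta cells. Cenpa, the histone H3 variant that marks centromeres, differed from the others in being high in macrophages as well. It stood at 169, 166 and 117 CPM in T cells and at 27.6, 168, 37.1 and 169 CPM in macrophages, against 0.366 to 1.17 CPM in beta cells.

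Among regulators, Ube2c, the ubiquitin-conjugating enzyme of the anaphase-promoting complex, was at 185, 298 and 88.0 CPM in T cells and at 21.4 and 24.0 CPM in B cells. Its beta cell values were 0.387, 2.83, 0.183 and 3.94 CPM. Birc5, a subunit of the chromosomal passenger complex with Aurkb, was at 211, 164 and 73.3 CPM in T cells and at 0 in all endothelial and delta libraries. The spindle checkpoint genes Bub1 and Bub1b stood at no more than 26.7 CPM in any type and library.

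Replication genes were spread over more types. Mcm6 stood at 161, 197 and 91.1 CPM in T cells, 71.6 and 97.9 CPM in B cells, 52.6, 53.7 and 61.1 CPM in ductal cells, 28.0, 51.4, 21.2 and 57.6 CPM in endothelial cells and 2.29 to 4.69 CPM in beta cells. Mcm3 was at 40.6, 42.9, 67.5 and 41.2 CPM in endothelial cells and at 0.842 to 1.55 CPM in beta cells. Pcna, which also serves in DNA repair, was at 101 to 126 CPM in endothelial cells, 115 to 190 CPM in macrophages and 33.1 to 39.5 CPM in beta cells. Rrm2, the ribonucleotide reductase subunit whose level follows S phase, stood at 148, 92.0 and 22 CPM in T cells and at 0 to 0.666 CPM in endothelial cells. Rrm1, the partner subunit, was at 24.7 to 30.9 CPM in those endothelial cells.

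Hmgb2, a chromatin protein, reached 1287, 1283 and 656 CPM in T cells and 336 and 459 CPM in B cells, while beta cells held 13.7 to 17.5 CPM. Stmn1, which destabilises microtubules, was at 287, 162 and 74.4 CPM in T cells and 3.25 to 4.10 CPM in beta cells.

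**Figure D3:**
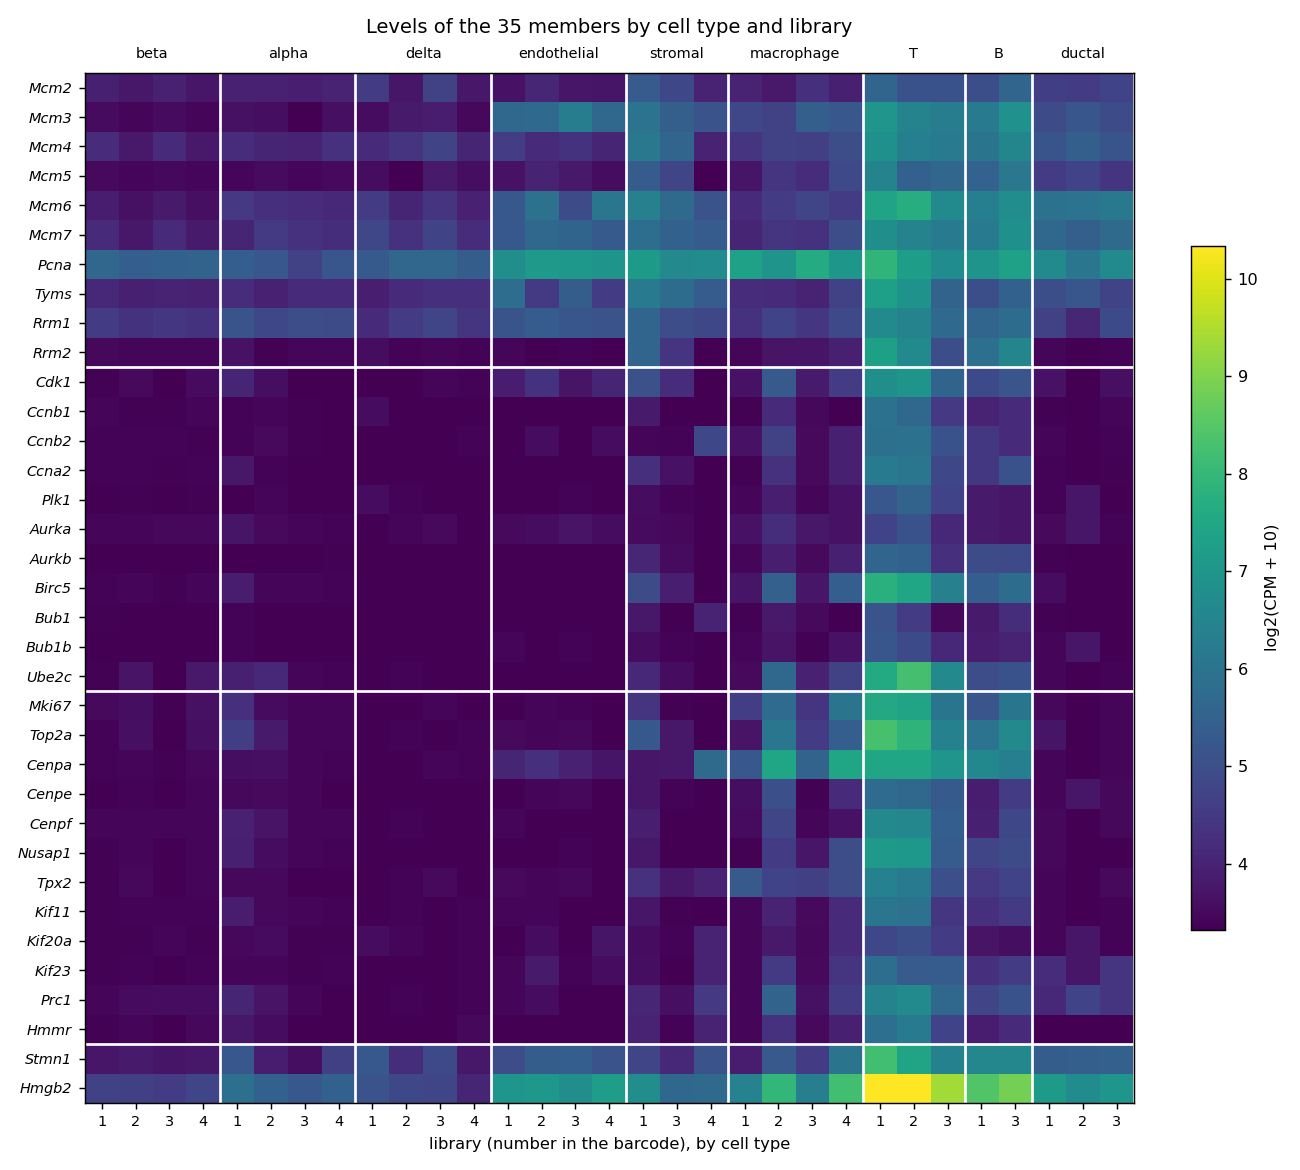
Level of each of the 35 genes (rows, by role) in each gated type and library (columns, grouped by type), coloured by log2 of CPM plus a pseudocount of 10. T and B columns are the brightest for most rows, and replication rows stay bright in endothelial, stromal and ductal columns where mitosis rows are dark.

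Leaving out the 109 cells with 8 or more mitosis genes showed which levels rested on them. Mki67 in T cells went from 179, 162 and 56.6 CPM to 17.9, 22.3 and 14.4 CPM, and Top2a went from 307, 226 and 74.4 CPM to 34.8, 9.57 and 20.4 CPM. Hmgb2 in T cells kept a median of 382 CPM and Mcm6 a median of 95 CPM, still the highest of the types. For other genes the order changed. By the median, Cenpa was then highest in macrophages at 86.3 CPM and Pcna in macrophages at 133 CPM. Prc1 was highest in ductal cells at 11.2 CPM, Stmn1 in ductal cells at 33.6 CPM and Tyms in stromal cells at 41.1 CPM. For each of these genes the libraries overlapped those of the type next in order. Cenpa ran from 23.3 to 167 CPM in macrophages and from 65.5 to 82.8 CPM in T cells. Tpx2 was also highest in macrophages, at 11.2 CPM against 3.10 CPM in stromal cells, with the ranges apart. That gap rests on few counts. The lowest macrophage values were 8.40 CPM from 8 UMIs in library 2 and 8.66 CPM from 3 UMIs in library 4. The highest stromal value, 6.24 CPM in library 4, was 1 UMI, with an exact 95% Poisson interval of 0.158 to 34.8 CPM.

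Each type was then set against the beta cells of its own library, as the log2 ratio of the 2 levels after adding 10 CPM to each, which understates the change of low genes. A gene is called where the ratio is at least 2-fold in the same direction in every library with 20 cells of both types. In T cells 31 of the 35 genes were called higher (libraries 1 to 3), against 9.11% of all genes tested. All 10 replication genes, all 12 chromosome and spindle genes, 7 of 11 regulators, Stmn1 and Hmgb2 were among them. The median difference over the 35 genes was 2.67, against 0.00 over all genes. Hmgb2 had the largest difference at 5.67, followed by Top2a at 4.28 and Ube2c at 4.23, and only Aurka, Aurkb, Bub1 and Bub1b were not called. With every T cell and beta cell given equal weight, whatever its depth, 15 of 35 were called.

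In B cells 22 of 35 were called higher (libraries 1 and 3), against 9.89% of all genes, with a median of 1.46 against -0.03, and 9 of 35 with cells weighted equally. Of replication genes 9 of 10 were called, with Mcm3 at 3.02 and Rrm2 at 2.75, and Tyms at 1.20 was not. Of chromosome and spindle genes 6 of 12 were called, and of regulators 5 of 11. In calls at this pseudocount, B cells came closer to T cells in replication genes than in mitosis genes, where 11 of 23 were called against 19 of 23 in T cells. With a pseudocount of 1 CPM, 34 of 35 genes were called in B cells, so the contrast in calls rests on the pseudocount. The B cell gate also leaves out cells with both B cell and plasma cell markers, described below.

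Macrophages had 6 of 35 genes higher than beta cells in all 4 libraries, against 7.14% of all genes. These were Cenpa at 3.09, Hmgb2 at 2.55, Mki67 at 1.64, Pcna at 1.62, Mcm3 at 1.53 and Tpx2 at 1.43. The calls of Mki67 and Tpx2 rested on few cells. Without the 7 macrophages with 8 or more mitosis genes, Mki67 was at 6.30 and 5.77 CPM in libraries 3 and 4. Tpx2 was then at 8.40 and 8.66 CPM in libraries 2 and 4. Below 10 CPM a gene cannot reach 2-fold at this pseudocount, so neither would be called. Endothelial cells also had 6, against 10.9% of all genes, but these were the replication genes Mcm3 (2.25), Mcm6 (1.84), Pcna (1.48) and Mcm7 (1.47) with Hmgb2 (2.38) and Stmn1 (1.46), and no mitosis gene. Ductal cells had 5, against 8.11%, namely Hmgb2 (2.45), Mcm6 (2.33), Stmn1 (1.64), Mcm7 (1.60) and Mcm3 (1.43). Stromal cells had 5, against 9.75%, all replication genes: Mcm3 (1.93), Mcm6 (1.91), Tyms (1.77), Mcm7 (1.55) and Pcna (1.15). Without library 4, which holds 20 stromal cells, 8 genes were called in them. Alpha and delta cells had 0 of 35, against 2.05% and 2.16% of all genes. No gene of the 35 was lower than in beta cells in any type, while of all genes tested 0.891% were lower in alpha, 0.674% in delta, 3.13% in endothelial, 3.83% in stromal, 3.84% in macrophage, 4.37% in T, 10.2% in B and 1.35% in ductal cells.

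Insulin and the other hormones take up a large share of beta cell UMIs, 41.8%, 58.1%, 41.5% and 56.8% in libraries 1 to 4, and this lowers the CPM of all other beta cell genes. With 7 hormone genes left out of every total, the counts became 28 in T cells, 19 in B cells, 4 in macrophages, 2 in endothelial cells, 2 in stromal cells and 5 in ductal cells. The shares of all genes called higher were then 5.45%, 6.53%, 4.65%, 6.0%, 5.31% and 4.05% in the same order, so the counts in endothelial and stromal cells were near the background. The medians over all genes moved to -0.14 in T cells and -0.25 in B cells, and those over the 35 genes to 2.49 and 1.35.

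The wider pathway was read from 75 further genes: G1 cyclins and kinases, CDK inhibitors, RB and E2F genes, origin and fork factors, and mitotic entry and exit factors. In T cells 27 of 74 tested were higher than in beta cells and 1 lower. Those with the largest differences were Cks2 (3.91), a CDK-binding subunit, Smc4 (3.55), a condensin subunit, Tubb5 (3.49) and Gmnn (2.89), which blocks relicensing, while Ccnd1 was lower (-1.93). In B cells 26 of 73 were higher, led by Tubb5 (3.0), Gmnn (2.44), Cks2 (2.36) and Smc4 (2.35), and 4 were lower, Cdkn1a (-3.74), Ccnd1 (-2.57), Ccnd2 (-2.06) and Spc25 (-1.67).

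Cyclin D2, the G1 cyclin prominent in beta cells, was lower than in beta cells in endothelial cells, macrophages, B cells and ductal cells. Ccnd2 stood at 668, 471, 731 and 424 CPM in beta cells and at 47.3, 35.7, 44.7 and 29.9 CPM in macrophages, a difference of -3.50. It was also lower in endothelial cells (-2.83) and ductal cells (-2.04). Of 74 genes, 8 were higher and 3 lower in endothelial cells, where Tubb5 (2.95), Cdkn2b (2.39), Rb1 (2.05) and E2f3 (1.59) led. In ductal cells 7 were higher and 2 lower, with Cdk6 (2.24), Cdk4 (1.47) and Ccnd1 (1.04) among the higher. In stromal cells 8 of 72 were higher and 1 lower, and in macrophages 4 of 74 higher and 2 lower. The shares of all genes called higher were 10.9% in endothelial, 8.11% in ductal, 9.75% in stromal cells and 7.14% in macrophages, so these pathway counts were near the background, whereas those in T cells and B cells stood beside 9.11% and 9.89%. Against 2.05% and 2.16% of all genes called higher, alpha cells had Tubb5 higher (1.31) and Cdkn1a lower (-1.62), and delta cells had Ccnd1 higher (1.39) and Spc25 lower (-2.31). Spc25, a kinetochore gene by name, was seen in 69.1% of beta cells and 35.8% of alpha cells but in 3.95% of delta cells. It lies beside the beta cell gene G6pc2 on chromosome 2 but on the opposite strand, and 4878 bases separate the starts of the genes.

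The cells with both Mki67 and Top2a were compared with cells of the same type with neither, over the other 33 genes, in the 3 types with at least 20 such cells. Mki67 and Top2a chose the cells and are left out. A gene is called here where the pooled ratio and that of every library with at least 10 such cells is at least 2-fold (libraries 2 and 4 for beta cells, 1 for T cells, 1 and 3 for B cells). In beta cells 31 of 33 were higher, against 1.5% of all genes tested, with a median log2 difference of 2.30 against -0.01. In T cells 33 of 33 were higher, against 7.03%, with a median of 3.30. In B cells 32 of 33 were higher, against 6.66%, with a median of 2.97. No gene of the 33 was lower in any of the 3 types, against 0.0303%, 7.75% and 4.8% of all genes in beta, T and B cells. With genes at 0 in the comparison cells set at their lower bound, the medians were 3.33 in T cells and 3.02 in B cells.

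In beta cells with both transcripts, Ube2c stood at 350 CPM and was seen in 26 of 28 cells, against 0.135 CPM and 32 of 6072 cells with neither (5.15). Stmn1 was at 345 CPM against 1.42 CPM (4.96), and Hmgb2 at 395 CPM against 12.8 CPM (4.15). Cdk1, the mitotic kinase itself, was seen in 25 of 28 cells and stood at 154 CPM against 0.155 CPM (4.01). Among replication genes Tyms was at 72.8 CPM against 5.30 CPM (2.44) and Mcm5 at 42.6 CPM against 0.639 CPM (2.31). Rrm2 had the smallest difference of the 10, at 17.2 CPM against 0.659 CPM (1.35), and was seen in 12 of 28 cells. The 2 genes below the line were Bub1b at 0.86 and Kif20a, a kinesin of cytokinesis, at 0.96.

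In lymphocytes Rrm2 was among the leading genes. It stood at 317 CPM against 3.21 CPM in T cells (4.63) and at 458 CPM against 0.801 CPM in B cells (5.44), seen in 25 of 28 and 21 of 23 cells. Birc5 was at 521 CPM in T cells with both and at 0 UMIs in the 319 with neither, at least 271-fold higher, and at 287 CPM in B cells against 0 UMIs in 919, at least 478-fold higher. Both bounds set the zero at 3 counts over the group. Ube2c was at 573 CPM against 3.21 CPM in T cells (5.47) and 169 CPM against 0.601 CPM in B cells (4.07). Cenpa was the exception in B cells, with 119 CPM against 73.7 CPM (0.62), as it was already present in 29.3% of B cells with neither transcript. Whether Rrm2 differed between the types beyond counting error was not tested.

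**Figure D4:**
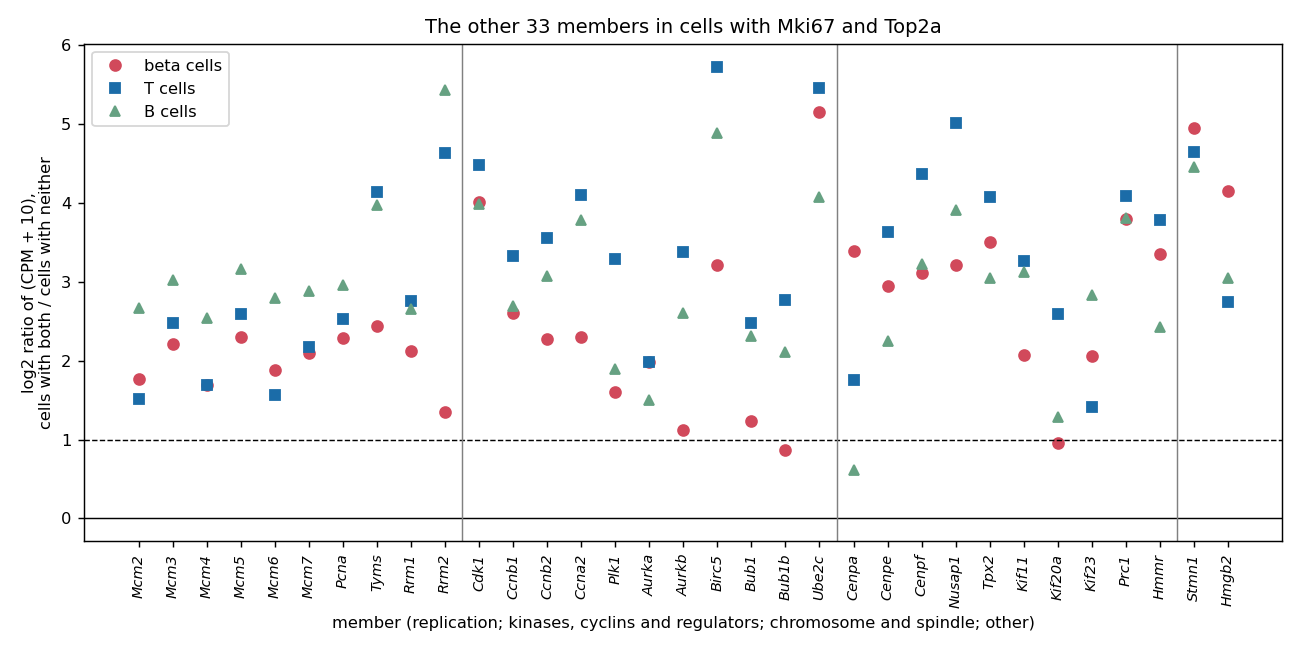
Log2 ratio of CPM (pseudocount 10, vertical axis) in cells with both Mki67 and Top2a over cells with neither. Each of the other 33 genes (horizontal axis) has points for beta, T and B cells. Beta cell points run from 0.86 for Bub1b to 5.15 for Ube2c, and Rrm2 lies at 1.35 in beta cells, 4.63 in T cells and 5.44 in B cells.

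The compared cells differed in depth. Median UMIs were 54194.5 with both and 40134.5 with neither in beta cells, 23936.5 and 3286 in T cells, and 31921 and 4551 in B cells. In the beta cells with both, insulin made up a median of 45.0% of UMIs (range 15.9 to 69.8%) against 50.2% in those with neither. No T cell marker was seen in the 28 beta cells with both, a B cell marker was seen in 3 and a macrophage marker in 14, while among the 6072 with neither the numbers were 37, 523 and 2631. The part of depth in the ratios was not tested.

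Among the 75 pathway genes, 41 of 73 tested were higher in beta cells with both transcripts and 0 lower. Cks2 (4.32), the condensin subunits Smc4 (3.28) and Smc2 (3.18) and securin, Pttg1 (2.84), led. CDK inhibitors were among the higher genes, with Cdkn2c at 84.0 CPM against 6.17 CPM (2.54), Cdkn2d at 85.2 CPM against 11.5 CPM (2.14) and Cdkn1a at 637 CPM against 193 CPM (1.67). Cyclin D2 stayed near its level in other beta cells, at 426 CPM against 499 CPM. In T cells 56 of 72 were higher, led by Cks1b (3.82), Cdc20 (3.60), Gmnn (3.57) and Cks2 (3.40), and 2 were lower. The lower ones were the inhibitors Cdkn1b, at 72.6 CPM against 269 CPM (-1.76), and Cdkn2b. Cdkn2b was at 0 UMIs in the 28 cells with both, against 18.6 CPM in those with neither, where only 11 of 319 cells held it. In B cells 53 of 69 were higher, led by Uhrf1 (4.11), Gmnn (4.09), Cks1b (3.79) and Dut (3.72), and Cdkn1b (-1.53) and Rbl2 (-1.32) were lower. Cdkn1b was at 61.5 CPM in beta cells with both and 43.6 CPM in those with neither. Of all genes tested, 1.5%, 7.03% and 6.66% were higher in beta, T and B cells. The shares lower were 0.0303%, 7.75% and 4.8%, so the lower pathway genes in T and B cells were no more frequent than among all genes.

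Replication genes were next set against mitosis genes cell by cell, by the share of cells with at least 3 of the 10 replication genes and the share with at least 3 of the 23 mitosis genes. These are ranges of a count, not cell types. Beta cells had 26.6% and 0.740%, endothelial cells 38.1% and 0.407%, ductal cells 51.4% and 2.27% and stromal cells 62.2% and 8.22%. T cells had 22.2% and 11.1%, B cells 11.0% and 3.81%, and macrophages 22.7% and 7.64%. At 5000 UMIs per cell the beta cell share with 3 replication genes was 0.534%, beside 0.450% with 3 mitosis genes. Endothelial cells had 12.2% and 0%, ductal cells 10.5% and 0.350% and stromal cells 18.3% and 2.95%, so there the surplus of replication genes was also present at equal depth. T cells had 33.8% and 23.6%, and B cells 12.4% and 6.32%. Macrophages had 4.36% and 2.31%, alpha cells 1.04% and 0.122%, and delta cells 1.12% and 0%.

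**Figure D5:**
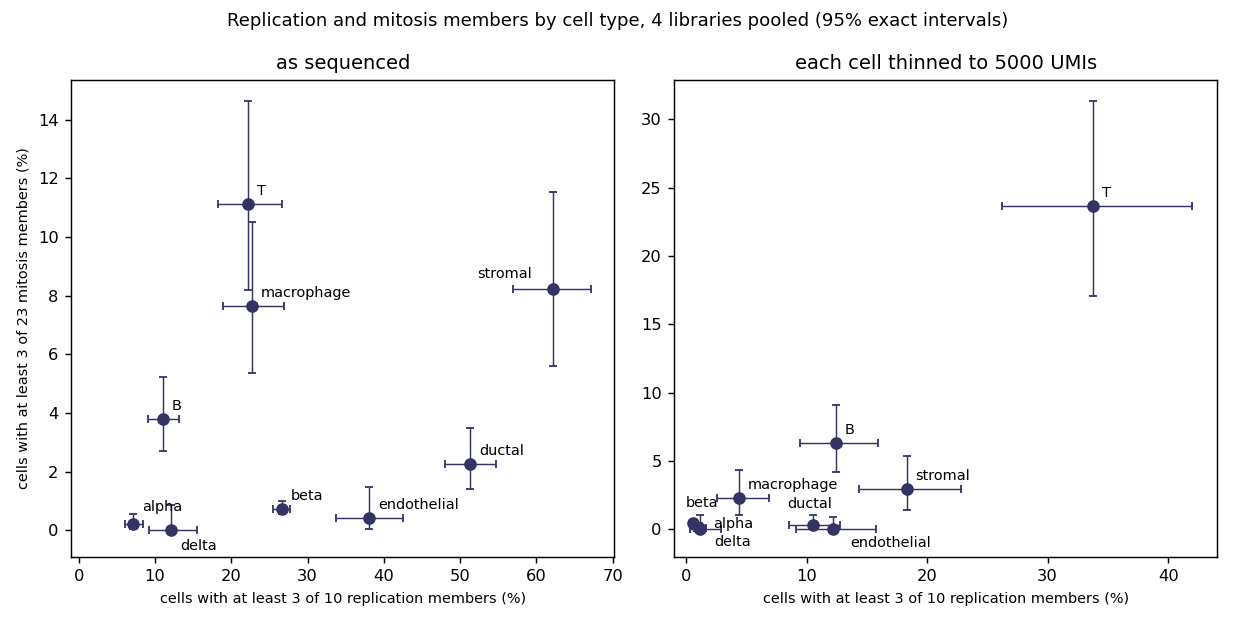
Share of cells with at least 3 replication genes (horizontal axis, percent) and with at least 3 mitosis genes (vertical axis, percent) for the gated types pooled over libraries, at full depth and at 5000 UMIs per cell. Beta cells move from 26.6% to 0.534% on the horizontal axis between the panels, and T cells from 22.2% to 33.8%.

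Within types, libraries 1 and 3 often stood on the same side, away from 2 and 4. In beta cells 0 of 35 genes had a range over libraries of at least 2-fold with the pseudocount, against 2.92% of all genes. Below that size, 8 of the 10 replication genes were higher in both libraries 1 and 3 than in both 2 and 4. Mcm4 stood at 8.47, 4.00, 8.30 and 3.93 CPM and Mcm7 at 7.84, 3.64, 7.72 and 4.12 CPM in libraries 1 to 4. The hormone share of beta cell UMIs moved with these values. With hormone genes left out of the totals, 5 genes (Mcm2, Mcm3, Mcm4, Mcm6 and Mcm7) remained on that side, Mcm4 at 14.6, 9.54, 14.2 and 9.09 CPM, 3 (Pcna, Tyms and Rrm1) stood on the other side and 2 overlapped. For mitosis genes the order was the opposite: 13 of 23 were higher in libraries 2 and 4, and 18 of 23 with hormone genes left out. That order rested on few cells. Without the beta cells that held 8 or more mitosis genes (3, 15, 0 and 13 in libraries 1 to 4), 5 of 23 mitosis genes were higher in libraries 2 and 4 and 13 in libraries 1 and 3, an alternative chosen after seeing the data. Top2a went from 0.435, 2.11, 0.146 and 2.11 CPM to 0.439, 0.116, 0.146 and 0.0750 CPM. The order of the replication genes did not turn, with 9 of 10 then higher in libraries 1 and 3. Both counts without these cells keep hormone genes in the totals, where hormones took up less in libraries 1 and 3. None of these orders was counted over all genes, so they have no background beside them. The share of beta cells with 3 replication genes was 42.4%, 24.5%, 44.3% and 21.2%, and 0.686%, 0.509%, 0.709% and 0.488% when thinned.

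The range over libraries was counted in the 5 types with at least 20 cells in every library (beta, alpha, delta, endothelial and macrophage), and among these macrophages had the most genes past 2-fold. In them 15 of 33 genes tested had a range of at least 2-fold, against 13.5% of all genes, and each of the 15 was higher in libraries 2 and 4 than in 1 and 3. Cenpa stood at 27.6, 168, 37.1 and 169 CPM, Hmgb2 at 76.8, 239, 70.9 and 286 CPM, Birc5 at 3.28, 34.7, 3.44 and 32.7 CPM and Ube2c at 1.31, 41.6, 5.50 and 16.3 CPM. Without the 7 macrophages that held 8 or more mitosis genes, Cenpa stood at 23.3, 139, 34.0 and 167 CPM and Hmgb2 at 77.6, 175, 61.6 and 185 CPM, so the order of these genes was unchanged. Mki67 was then at 12.0, 16.8, 6.30 and 5.77 CPM, Birc5 at 0.666, 6.30, 2.45 and 0 CPM and Ube2c at 0.999, 0, 2.10 and 0 CPM, and their order was lost. All 12 Birc5 UMIs of library 4 lay in 1 such cell. Of the 15 genes, Cenpa, Hmgb2, Top2a, Cdk1 and Stmn1 kept the order without these cells, and the others lost it. Macrophage markers also differed, with Adgre1 seen in 70.3%, 37.9%, 64.8% and 50% of these cells and C1qb in 71.4%, 90.8%, 83.4% and 100%. The dendritic cell marker Flt3 was seen in at most 1.38% in any library. In cells with a C1qb UMI alone (125, 79, 121 and 38 cells) Cenpa was at 28.3, 173, 33 and 169 CPM. The part of the markers in the difference was not tested.

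Fewer genes did so in endothelial, alpha and delta cells. In endothelial cells 2 of 14 tested had a range of at least 2-fold, against 11% of all genes: Mcm6 was higher in libraries 2 and 4 (28.0, 51.4, 21.2 and 57.6 CPM) and Tyms in libraries 1 and 3 (47.3, 12.9, 32 and 13.2 CPM). In alpha cells 2 of 30 did, against 0.691%. These were Top2a, at 14.8, 4.12, 0.626 and 0.651 CPM, and Stmn1, and a pair of alpha cells, in libraries 1 and 2, carried 70.3% of mitosis UMIs. In delta cells Stmn1 and Hmgb2, 2 of 11 tested, did so, against 3.13%. T, B, stromal and ductal cells were not counted this way, having under 20 cells in some library, and T cell levels also ranged between libraries, with Top2a at 307, 226 and 74.4 CPM in libraries 1 to 3.

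Cells with many mitosis genes also lay outside the gates. Of 201 kept cells with 8 or more mitosis genes, 84 were left ungated and 7 were dendritic. Of the 84, 47 held at least 2 B cell markers together with all 3 plasma cell markers, and 8 had insulin at 10% of UMIs or more. Libraries 1 to 4 held 52, 8, 21 and 3 of them. The gated B cell counts above therefore leave out these cells.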

How the data were processed

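Dispersed islet cells of 4 samples were profiled by droplet single-cell RNA-seq. The authors deposited 1 pooled matrix of UMI counts (32285 genes, 19987 barcodes), made with Cell Ranger 6.1.2 on mm10, per the submitters' processing notes; the deposited counts are whole numbers with no normalization. The barcode numbers 1 to 4 were taken as libraries, since the sources used here do not tie them to samples. Library totals were 82963911, 178396311, 85266513 and 110800927 UMIs.

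Cells with at least 500 genes and at most 20% mitochondrial UMIs were kept. A beta, alpha or delta cell needed its hormone at 10% of UMIs or more. Other types needed at least 3 markers of 1 list. Endocrine cells with 3 markers of a non-endocrine list were left out, which also treats doublets, and no doublet caller was run. In all, 655 cells with several hormones, 991 endocrine cells with other markers and 2203 cells that met no gate were left ungated. UMIs were summed per type and library and divided by the total (CPM). Genes with at least 10 UMIs in the cells compared were tested. Exact 95% binomial intervals cover counting error only, and 3 counts were taken as the limit a count of 0 allows. Thinning used random seed 1. Calls were tested on simulated data. The genes and lists were chosen with earlier results of these data known.

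Genes outside the 35 were named as the 4 with the largest ratios each way. Inhibitors, Ccnd2, Cdkn1b and Spc25 were named after their values were seen. Alternatives were a stricter cell filter and gate, no low-count filter, thinning, at least 2 UMIs, at least 5 genes, other pseudocounts and totals, and leaving out each library. Python 3.11.15, numpy 2.4.6, scipy 1.17.1, pandas 2.3.3 and matplotlib 3.10.9 were used.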

Additional observations from a re-analysis of the deposited data

Results flagged for a closer look

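Dendritic and ungated cells enter no comparison of the 9 types, yet some held both Mki67 and Top2a. The shares were 3.30% of dendritic cells in library 1 and 2.07% in library 3. Among ungated cells they were 4.70%, 0.565%, 2.28% and 0.421% in libraries 1 to 4. In all, 6 of 254 dendritic cells and 81 of 3849 ungated cells held both, so the dendritic shares rest on few cells.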

How the results depend on the processing

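Of 1328 recomputed values, 1108 stayed within their interval, 1 SD or 1.5 times the reported count, and 220 moved further, 96 of them on thinning to 5000 UMIs, 53 with at least 5 genes per cell and 42 with at least 2 UMIs. The median share over libraries with Mki67, at 5000 UMIs and with at least 2 UMIs, was 0.310% and 0.574% in beta cells, 5.68% and 3.95% in macrophages, 20.7% and 6.78% in T cells and 4.72% and 2.41% in B cells. For Top2a it was 0.326% and 0.344% in beta cells, 1.91% and 3.04% in macrophages and 18.4% and 5.08% in T cells. With at least 2 UMIs alpha cells had 0.219% (Mki67) and 0.150% (Top2a), and endothelial cells 0% (Top2a). The Mki67 share of B cells was 3.30% at 1000 genes and 10% mitochondrial UMIs, 3.22% under the stricter gate and 5.83% with the plasma cell list left out of the gate, a setting chosen after seeing the data.

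The number of the 35 genes higher than in beta cells changed as follows. With cells weighted equally it was 15 in T cells, 9 in B cells and 2 in stromal cells. With a pseudocount of 1 CPM it was 34 in B cells, 11 in ductal cells, 8 in stromal cells and 1 in delta cells. With hormone genes left out it was 2 in endothelial and 2 in stromal cells. Stromal cells had 8 at 1000 genes, 9 under the stricter gate and 8 without library 4, which holds only 20 of them. The cause of these changes was not tested. Library numbers with under 20 cells of a type, above all T and B cells in library 4, limit what can be said. No paired analysis was possible because the barcode numbers are not tied to samples and no test was run.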

Other observations

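Genes outside the lists were ranked by their ratio in immune cells with both Mki67 and Top2a (59 cells) over immune cells with neither (1612 cells). Pclaf, which binds PCNA, led with 841 CPM against 0.808 CPM (6.30 on the log2 scale) and was seen in 53 of the 59 cells. The replication-dependent histone genes Hist1h1b (5.89) and Hist1h2ap (5.13) were next. Cdca8, the passenger complex partner of Birc5 and Aurkb, stood at 191 CPM against 4.28 CPM (3.81). The cohesin acetyltransferase gene Esco2 (3.36) was among the 15 leading genes. In beta cells the same ratio was 2.64 for Pclaf, 3.50 for Hist1h1b and 0.82 for Esco2. Il17a, a cytokine of some T cells, stood at 4.33, but all 406 of its UMIs in cells with both transcripts lay in 1 cell.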
